A study of Mus musculus with 8 samples.

Results

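The insulin-like growth factor (IGF) family was examined in cultured mesenchymal stem cells from mouse marrow through 10 genes: the ligands Igf1 and Igf2, the receptors Igf1r and Igf2r, and the binding proteins Igfbp2, Igfbp3, Igfbp4, Igfbp5, Igfbp6 and Igfbp7. They were taken by Ensembl identifier from the 17592 genes measured by a rule that uses no measured value, and all 10 were found. The list of genes was, however, chosen with earlier results of these data known. The study had 2 groups of 4 arrays: cells given 100 uM ropivacaine for 24 h, and cells that received no agent and were harvested at 24 h too. Ropivacaine is a local anaesthetic of the amide class, whose main targets are sodium channels of nerve fibres. In both groups the cells were of the strain given as C57B6/J, had been expanded in culture from bone marrow and were at passage 10. One protocol field of the labels gives the dose as 100 mM instead. Separate cultures or animals behind the replicates are not stated in the labels, and the p-values therefore measure only the spread between these arrays, which may be technical. Only the 10 genes could be named, so markers of stromal and other cells were not used to check the labelled cell type.

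IGF1 and IGF2 are secreted peptides that promote growth and survival, and stromal and bone-forming cells of the marrow make them locally. Both signal through IGF1R, a receptor tyrosine kinase, while IGF2R takes IGF2 up for breakdown. The binding proteins hold most of the IGF outside cells, and proteases release it from them.

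The values are log2 expression after robust multi-array averaging (RMA), a procedure that equalises the arrays, so each array had a median of 6.91 and an upper quartile of 8.42. A value belongs to the probes of its own gene and does not rank transcripts of different genes. In RNA of a whole culture, fewer cells of a type and less RNA per cell cannot be told apart. A gene was called when its Benjamini-Hochberg adjusted p in limma, taken over all 17592 genes, was below 0.05.

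None of the 10 IGF family genes was called in ropivacaine-treated against untreated cells (0 of 10), where 0.404% of all genes were. The members' log2 differences, ropivacaine minus control, ran from -0.13 for Igf1 to 0.07 for Igf2r, and the adjusted p ran from 0.42 for Igf1 to 0.985 for Igfbp3. The 71 genes called on the whole table differed by at least 0.22, with a median size of 0.36. Of the 10, 6 were lower and 4 higher with ropivacaine, against 52.3% of all genes lower. The median difference was -0.05 for the members and -0.005 for all genes, and the median size regardless of sign was 0.07 for the members and 0.055 for all genes. Unadjusted limma p-values below 0.05 were found for 2 of the 10, both ligands and both lower, where 9.74% of all genes passed in either direction and 4.41% as lower. A share of 20% among 10 genes rests on 2 genes, and is not read here as a result about the family.

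**Figure D1:**
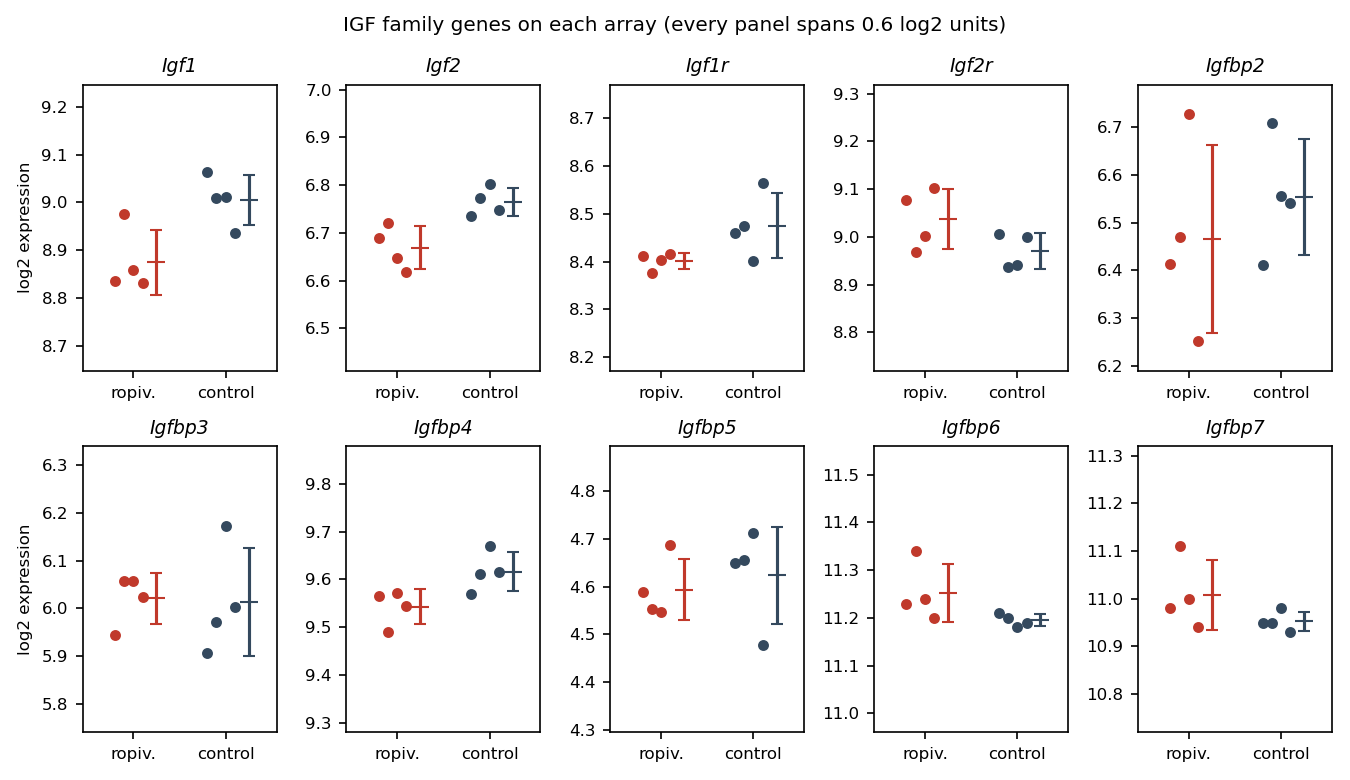
Log2 expression of each IGF family gene (vertical axis, log2 units) on the 4 ropivacaine arrays (red, left) and the 4 control arrays (dark, right), with group mean and SD beside the points; arrays run from replicate 1 to 4 and each panel spans 0.6 units. Only for Igf2 do all 4 ropivacaine points lie below all 4 control points, and Igfbp2 has the widest scatter.

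Both ligands were lower on average with ropivacaine. Stretches just before their transcription start sites are shown here because they were the members with the smallest p. The sequences are from RefSeq (GRCm38.p6), matched by symbol, which found all 10 members with 14 start sites between them. Each window holds the 250 bases before a start, on the strand of the gene and written from 5′ to 3′, and capitals mark the GC box letters GGGCGG on either strand. Igf1 has 1 listed start (chr10:87860861-87861110, plus strand). Igf2 has 4, of which the first along the gene (chr7:142666817-142667066, minus strand) and the last (chr7:142657497-142657746, minus strand) are given.
Igf1: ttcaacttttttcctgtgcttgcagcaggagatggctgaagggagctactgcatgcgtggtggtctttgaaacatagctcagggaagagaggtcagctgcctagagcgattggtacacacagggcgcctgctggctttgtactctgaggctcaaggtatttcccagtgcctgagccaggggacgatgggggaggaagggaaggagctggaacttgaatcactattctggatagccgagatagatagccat
Igf2 first start: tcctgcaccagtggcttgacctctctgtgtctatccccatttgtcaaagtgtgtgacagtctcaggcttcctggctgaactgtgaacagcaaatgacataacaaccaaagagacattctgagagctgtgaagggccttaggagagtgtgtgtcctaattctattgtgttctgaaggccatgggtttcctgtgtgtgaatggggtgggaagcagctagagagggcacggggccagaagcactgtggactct
Igf2 last start: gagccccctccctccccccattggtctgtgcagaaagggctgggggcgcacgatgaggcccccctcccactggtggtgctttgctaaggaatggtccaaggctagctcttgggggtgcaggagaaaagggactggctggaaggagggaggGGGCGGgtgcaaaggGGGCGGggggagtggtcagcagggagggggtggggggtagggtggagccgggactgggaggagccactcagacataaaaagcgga
GGGCGG was present 2 times before the last Igf2 start, and no match lay in the other windows shown. Of the Igf2 windows not shown, that of start 3 along the gene held 1 match and that of start 2 held 0. The GC box letters were found in 6 of the 14 windows of the members, and in 32.7% of the 32851 windows of that length in the table. The letters TATAAA, also searched on both strands, were found before the starts of Igfbp4 and Igfbp6, in 2 of the 14 windows, against 12.4% of all. Matches of the 2 motifs cannot overlap. The window before Igf1 held 5 CG dinucleotides, and those of Igf2, from its first start to its last, held 1, 10, 22 and 6. The median over all windows was 6. The table has 1 value per gene, so which start of Igf2 was in use cannot be read from it.

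Igf1 (ENSMUSG00000020053), the main ligand of IGF1R after birth, had log2 values of 8.835, 8.975, 8.858 and 8.831 on ropivacaine arrays 1 to 4. On control arrays 1 to 4 it had 9.063, 9.010, 9.012 and 8.935. Ropivacaine arrays 1, 3 and 4 lay below every control array, while array 2 lay above the lowest control. The means were 8.875 ± 0.068 with ropivacaine and 9.005 ± 0.053 without (SD, n = 4 each). The log2 difference was -0.13 (SE 0.05, 95% interval -0.24 to -0.02), a change of -8.63% on the linear scale, and it was not called (limma adjusted p = 0.42). Its unadjusted limma p was 0.025. Igf1 ranked 1032 of 17592 genes by p, and 17.6% of all genes had a difference at least as large. With 1 array left out, the difference ranged from -0.16, without ropivacaine array 2, to -0.11, without control array 1, and the limma adjusted p from 0.31 to 0.63. The unadjusted limma p then ranged from 0.0066 to 0.065, and was above 0.05 without ropivacaine array 1, 3 or 4 or control array 1 or 3.

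Igf2 (ENSMUSG00000048583), the growth factor of fetal life that is expressed from the paternal allele in mice, had 6.689, 6.721, 6.647 and 6.619 on ropivacaine arrays 1 to 4. The control arrays had 6.735, 6.773, 6.803 and 6.749. All 4 ropivacaine values lay below all 4 control values, though the gap between the nearest ones was small. The means were 6.67 ± 0.05 with ropivacaine and 6.77 ± 0.03 without (SD, n = 4 each). Igf2 therefore had a log2 difference of -0.10 (SE 0.04, 95% interval -0.18 to -0.01), or -6.44% on the linear scale, which was not called (limma adjusted p = 0.47, unadjusted p = 0.036). It was the only member whose groups did not overlap, 1 of 10, where 6.7% of all genes did not overlap in either direction and 3.15% with ropivacaine below. With 1 array left out, its difference ranged from -0.11 to -0.08 and its unadjusted limma p from 0.025 to 0.096, below 0.05 only without ropivacaine array 2 or control array 1. On all arrays, the unadjusted limma p of Igf2 was 0.061 with an intensity trend and 0.070 with a block for the replicate number. Under the remaining alternatives that kept all arrays and tested Igf2, it ran from 0.030, with array weights, to 0.037, with robust moderation. The scatter of Igf2 within groups was small, with a residual SD of 0.04 that 6.54% of genes did not exceed.

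The receptors pointed in opposite directions, and neither was called. Igf1r (ENSMUSG00000005533), the signalling receptor, had 8.412, 8.377, 8.403 and 8.415 on the ropivacaine arrays and 8.460, 8.475, 8.402 and 8.565 on the control arrays. Of the ropivacaine values, 3 lay within the control range and 1 just below it. The 4 ropivacaine arrays were close together, at 8.40 ± 0.02, while the controls spread further, at 8.48 ± 0.07 (SD, n = 4 each). For Igf1r the log2 difference was -0.07 (SE 0.04, 95% interval -0.17 to 0.02, limma adjusted p = 0.64). Control array 4 was the highest of all 8, and without it the difference was -0.04 (limma adjusted p = 0.87).

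Igf2r (ENSMUSG00000023830) encodes the cation-independent mannose 6-phosphate receptor, which also carries lysosomal enzymes. It had 9.076, 8.968, 9.002 and 9.102 with ropivacaine and 9.005, 8.936, 8.940 and 9.0 in controls. Ropivacaine arrays 1 and 4 lay above the control range and arrays 2 and 3 inside it. The means were 9.04 ± 0.06 with ropivacaine and 8.97 ± 0.04 without (SD, n = 4 each), giving a log2 difference of 0.07 (SE 0.04, 95% interval -0.03 to 0.17, limma adjusted p = 0.69).

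Among the 6 binding proteins, 3 were higher and 3 lower, and 0 were called. Igfbp4 (ENSMUSG00000017493), an inhibitor of IGF action that is cleaved by the protease PAPP-A, had 9.566, 9.490, 9.571 and 9.544 on the ropivacaine arrays. The control arrays had 9.570, 9.612, 9.669 and 9.615. The groups touched only at their edges, since ropivacaine array 3 exceeded control array 1 while the other 3 ropivacaine values lay below all controls. The means were 9.54 ± 0.04 with ropivacaine and 9.62 ± 0.04 without (SD, n = 4 each). The log2 difference was -0.07 (SE 0.04, 95% interval -0.16 to 0.02), or -4.98% on the linear scale, with a limma adjusted p of 0.60.

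Igfbp6 (ENSMUSG00000023046), which prefers IGF2 over IGF1, and Igfbp7 (ENSMUSG00000036256), a relative with low affinity for IGFs, were both slightly higher on average. The deposited values of both carry 2 decimals. Igfbp6 had 11.23, 11.34, 11.24 and 11.20 with ropivacaine and 11.21, 11.20, 11.18 and 11.19 in controls. Igfbp7 had 10.98, 11.11, 11.00 and 10.94 with ropivacaine and 10.95, 10.95, 10.98 and 10.93 in controls. Ropivacaine array 2 was the highest of all 8 arrays for both genes. The log2 difference of Igfbp6 was 0.06 (SE 0.04, 95% interval -0.04 to 0.15, limma adjusted p = 0.72) and became 0.03 without that array. For Igfbp7 it was 0.055 (SE 0.045, 95% interval -0.05 to 0.16, limma adjusted p = 0.77) and became 0.02. The control arrays of both genes were tight, at 11.20 ± 0.01 for Igfbp6 and 10.95 ± 0.02 for Igfbp7 (SD, n = 4 each), while the ropivacaine arrays had SDs of 0.06 and 0.07.

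Igfbp2 (ENSMUSG00000039323), which can also bind integrins at the cell surface, varied more between arrays of a group than any other member. It had 6.414, 6.470, 6.727 and 6.252 on the ropivacaine arrays and 6.412, 6.709, 6.555 and 6.542 on the control arrays. The highest value of each group came from ropivacaine array 3 and control array 2, and the ropivacaine arrays alone spanned more than the controls did. The log2 difference was -0.09 (SE 0.10, 95% interval -0.32 to 0.14, limma adjusted p = 0.85). Ropivacaine array 3 and control array 2 also had the lowest estimated array weights on the whole table, 0.708 and 0.580, and the largest deviations from their groups over all genes. Without both arrays the difference was -0.12 (limma adjusted p = 0.64), without ropivacaine array 3 alone -0.18 (0.49) and without control array 2 alone -0.04 (0.96). Other arrays moved it as well: the difference was -0.02 without ropivacaine array 4 (limma adjusted p = 0.98), the lowest array of its group, and -0.14 without control array 1 (limma adjusted p = 0.69). The residual SD of Igfbp2 was 0.16, which 82.3% of genes did not exceed. For the other 9 members it lay between 0.04 and 0.09.

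Igfbp3 (ENSMUSG00000020427), the main carrier of IGF in blood, differed least between the groups. Its values were 5.945, 6.058, 6.058 and 6.023 with ropivacaine, all inside the control range of 5.907, 5.972, 6.173 and 6.003. The log2 difference was 0.01 (SE 0.06, 95% interval -0.13 to 0.15, limma adjusted p = 0.985), and its sign turned when single arrays were left out. Igfbp5 (ENSMUSG00000026185), a binding protein stored in bone matrix, had 4.588, 4.553, 4.547 and 4.687 with ropivacaine and 4.649, 4.656, 4.712 and 4.477 in controls. Again all 4 ropivacaine values lay inside the control range. Igfbp5 had a log2 difference of -0.03 (SE 0.06, 95% interval -0.17 to 0.11, limma adjusted p = 0.92). With 1 array left out it ranged from -0.079, without control array 4, to -0.00025, without control array 3 (limma adjusted p = 0.77 and 0.999), and it was -0.06 without ropivacaine array 4. The mean signal of Igfbp5, 4.61, was under the lower quartile of 5.73, and 1.42% of genes had a signal as low. Whether the probes of Igfbp5 read above background is unknown, so no linear change is given for it.

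**Figure D2:**
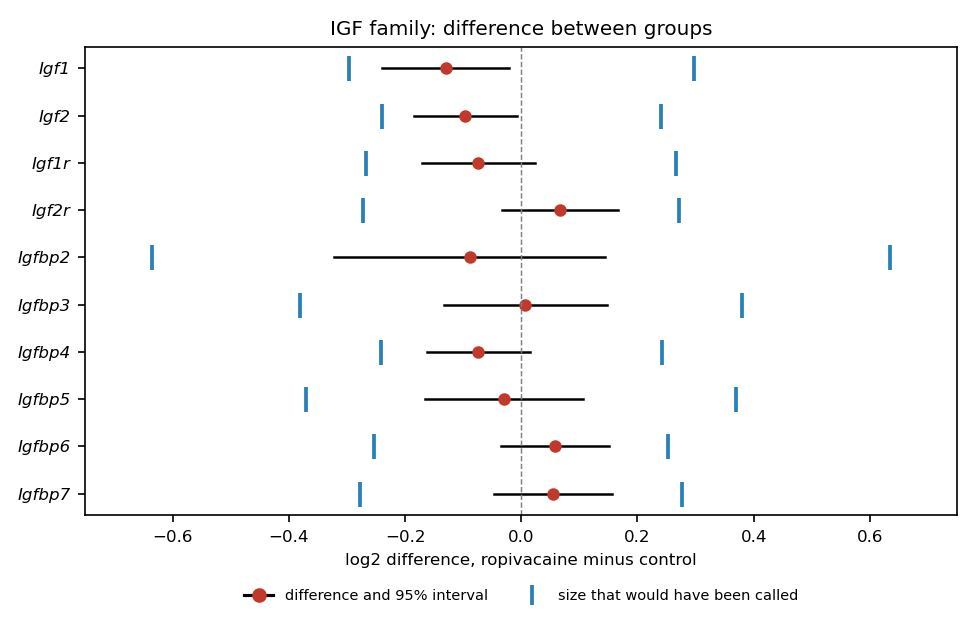
Log2 difference, ropivacaine minus control (horizontal axis, log2 units), of each IGF family gene as a point with its 95% limma interval. Blue ticks mark the size at which the gene would have been called given its own standard error, from 0.24 for Igf2 to 0.64 for Igfbp2; every point and interval lies inside its ticks.

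The 95% intervals of the 10 genes reached no lower than -0.32, for Igfbp2, and no higher than 0.17, for Igf2r, each interval being for 1 gene with no correction for the number of genes. For Igf1 the interval runs from -15.3% to -1.46% on the linear scale, for Igf2 from -12.0% to -0.53%, and for Igf1r from -11.2% to 1.68%. RMA values of arrays can understate changes in transcript level, so these percentages hold for the array scale. At each gene's standard error, the p of the weakest called gene would have been reached at a log2 difference of 0.30 for Igf1, 0.24 for Igf2, 0.27 for both receptors and 0.24 to 0.64 for the binding proteins. Differences smaller than that fall short of a call at these standard errors, with 4 arrays per group.

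**Figure D3:**
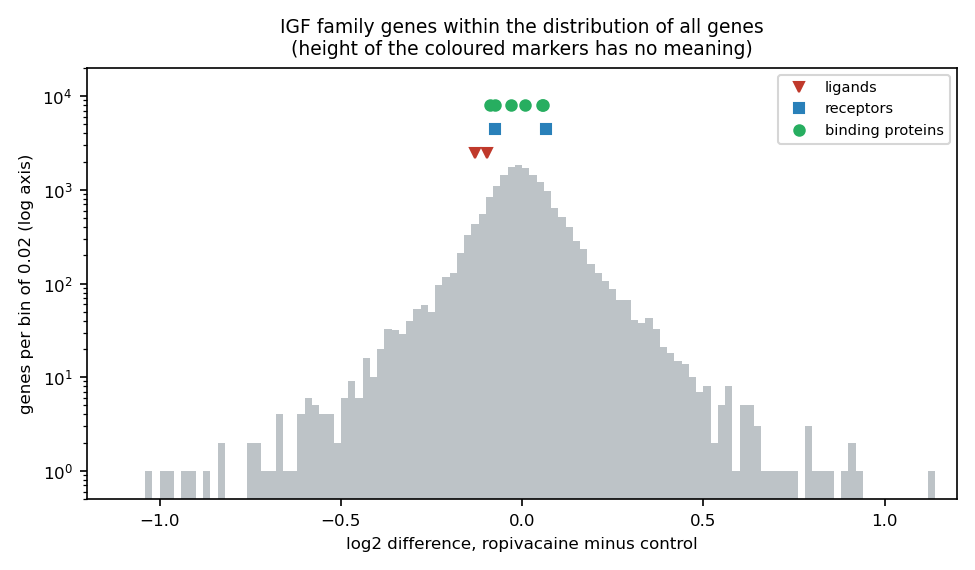
Number of genes (vertical axis, log scale) in bins of 0.02 of the log2 difference, ropivacaine minus control (horizontal axis, log2 units), over all 17592 genes in grey, with the IGF family marked by role above the bars at heights that carry no value. The 10 genes sit within -0.13 to 0.07, inside the body of the distribution. Both ligands are lower with ropivacaine, as are Igf1r, Igfbp2, Igfbp4 and Igfbp5.

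Deviations from the group mean showed which arrays held the extremes of each member. Among ropivacaine arrays, array 2 was the highest of its group for 5 of the 10 genes, namely Igf1, Igf2, Igfbp6, Igfbp7 and, tied with array 3, Igfbp3. It was the lowest for 3, Igf1r, Igf2r and Igfbp4. Ropivacaine array 4 was the lowest for 5 genes, Igf1, Igf2, Igfbp2, Igfbp6 and Igfbp7, and the highest for Igf1r, Igf2r and Igfbp5. Thus both ligands, Igfbp6 and Igfbp7 had their extremes on the same 2 ropivacaine arrays, and both receptors had theirs on the same arrays in the opposite order. Among the controls, array 3 was the highest for 5 genes, Igf2, Igfbp3, Igfbp4, Igfbp5 and Igfbp7. How often each array was the extreme of its group over all genes was not counted. A trait of a whole array therefore cannot be told apart here from one of these genes, and the shared order was not tested. The root mean square deviation over the members ranged from 0.037 to 0.086 with ropivacaine and from 0.053 to 0.067 in controls, below the 0.111 to 0.143 over all genes on every array. The members had a median signal of 8.69, against 6.91 for all genes, and genes of like signal were not compared.

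**Figure D4:**
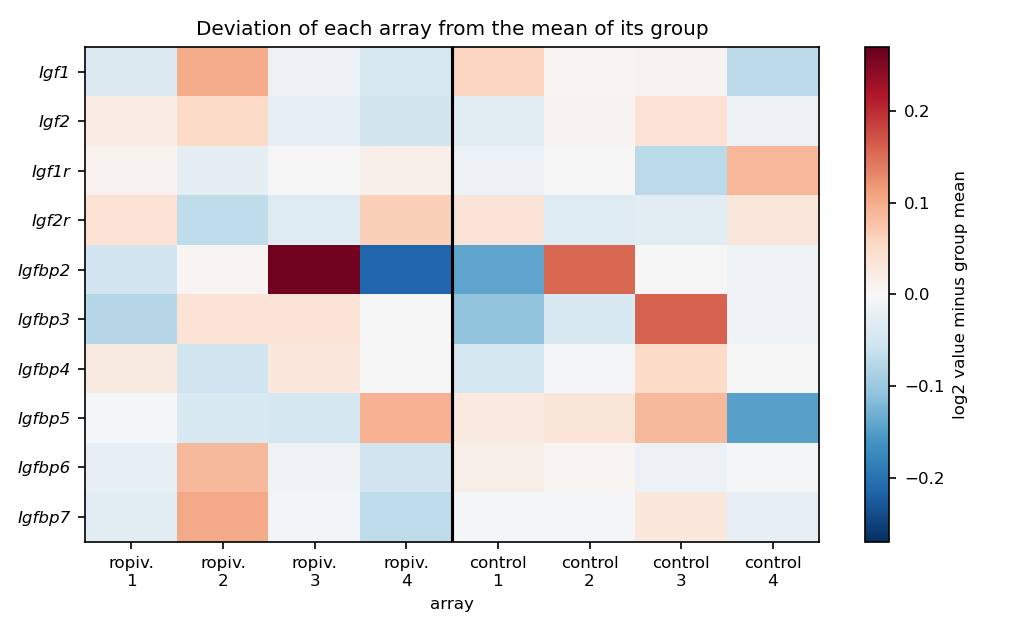
Log2 value minus the mean of its group (colour scale, log2 units) for each IGF family gene (rows) on each array (columns, 4 ropivacaine then 4 control). The strongest colours belong to Igfbp2 on ropivacaine arrays 3 and 4, and ropivacaine array 2 is above its group mean for Igf1, Igf2, Igfbp6 and Igfbp7.

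Some members share their locus with another gene in RefSeq. Igf1 and Igf2 overlap the antisense genes Igf1os and Igf2os, Igf2r overlaps the antisense transcript Airn, and Igfbp7 overlaps Polr2b, a subunit gene of RNA polymerase II. Igf1r overlaps Gm51487 and Gm51488, while Igf2 also overlaps Mir483 and Igfbp7 also overlaps Gm34648. Igfbp2 and Igfbp5 lie next to each other, with log2 differences of -0.09 and -0.03. Which probes the gene values of these members combine is not stated in the labels.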

How the data were processed

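Total RNA of 8 samples was amplified to biotin-labelled cDNA and hybridised to Affymetrix mouse exon arrays, per the labels' protocols. The table deposited by the authors holds log2 expression for 1 gene per row and 1 array per column, and RMA is the tool listed in the submitters' processing notes. Not given in the sources used here are its version, the probe sets, the build and the annotation release. No scanner file or detection call was used here, and batches could not be tested. The number of arrays limits the precision.

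Groups came from the array titles. All 17592 genes were fitted with limma 3.58.1 in R 4.3.3 (empirical Bayes, two-sided, no filter, no covariate), adjusted over all genes, and the script was tested on simulated data. Members were named through the list that defines them, because the table holds Ensembl identifiers only. For the same reason the lists of other IGF pathway genes and of cell type markers could not be applied. The members and lists were chosen with earlier results of these data known. All 10 members are described whatever their values. Alternatives covered normalization, moderation, dim genes, array weights, the replicate number and arrays left out. Figures used matplotlib 3.10.9.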

Additional observations from a re-analysis of the deposited data

How the results depend on the processing

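No IGF family gene was called under any of the 17 alternatives, and 159 of the 165 member values kept their direction. The adjusted p of the members ran from 0.232 to 0.999. The other 6 values were of Igfbp3, whose log2 difference ranged from -0.028 to 0.060 with 1 array left out and was -0.022 with array weights and -0.019 without both control array 2 and ropivacaine array 3; the cause was not tested. The count of called genes was 71 in all, 135 with an intensity trend, 114 without the dimmest 25% of genes and 179 without the dimmest 50%, where 9 and 6 members were tested. It was 15 to 31 with 1 array left out, lowest without control array 3, and 7 without both named arrays. Members at an unadjusted p below 0.05 numbered 2, against 1 with an intensity trend and 1 without the dimmest 50%. Igf1 was that member in both, and Igf2 was not tested without the dimmest 50%. They numbered 0 to 2 with 1 array left out and 0 without both named arrays. Members whose groups did not overlap numbered 1, against 1 to 2 with 1 array left out and 2 without both. Groups of fewer arrays separate more easily. The shares of all genes without overlap or at an unadjusted p below 0.05 were not counted in the alternatives. These counts are therefore not read as a result about the family. With a block for the replicate number (the paired fit), 3 genes and 0 members were called, and 1 member, Igf1, had an unadjusted p below 0.05. Deviations of same-numbered arrays had weak positive correlations (0.138, 0.009, 0.056 and 0.070). The best match of an array carried its own number for 4 of 8, where some such matches arise without pairs. These values cannot decide whether the numbers mark pairs. The labels state no pairing, so the main fit has no block. How far signals lay above background is unknown here, which bears most on Igfbp5.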
